A study of Mus musculus with 15 samples.

Results

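The TNF superfamily was followed in periprostatic fat, the white fat pad that lies around the prostate, of male C57BL/6 mice. Its members here are the rows whose symbol is Tnf or starts with Tnfsf, Tnfrsf or Tnfaip, which gave 41 of the 23995 symbols listed. They comprise 13 ligand entries, 20 receptors and 8 Tnfaip genes, a set that owes its symbols to induction by TNF or to resemblance to such genes. RNA was sequenced from the whole pad of 15 mice, with 1 library per mouse and 5 mice per group. HFD estradiol mice were fed from 6 weeks of age on a high-fat diet (60 kcal% fat) and, 12 weeks later, received a subcutaneous pellet of 0.25 mg 17beta-estradiol made to release over 60 days. HFD placebo mice ate the same diet for the same time and received a placebo pellet. LFD mice were kept on 10 kcal% fat (low-fat diet) and had no pellet, so that diet and pellet placement cannot be told apart between LFD and the other groups. All mice were 26 weeks old at harvest, 8 weeks after the pellets were placed. Because whole fat was sequenced, fewer cells of a type and less RNA per cell cannot be told apart.

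Ligands of the TNF superfamily are mostly membrane proteins that act as trimers, and several are released from the cell by proteases such as Adam17. Their receptors signal through a death domain, as Tnfrsf1a does, or through TRAF adaptors, as Tnfrsf1b does, and both routes can activate the transcription factor NF-kappaB. In fat, macrophages are a main source of TNF in obesity, and TNF is known to impair insulin action in adipocytes. Among the Tnfaip genes, Tnfaip3 encodes an enzyme that edits ubiquitin chains and restrains NF-kappaB, and Tnfaip8l2 is a brake on signalling in immune cells.

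Expression was deposited as FPKM, fragments normalised to transcript length and library size, and each library was rescaled so that the typical gene had the same level in all libraries (scaled FPKM). The FPKM sums ran from 37561 to 60725 in HFD estradiol libraries, from 34544 to 105910 in HFD placebo libraries and from 34449 to 38755 in LFD libraries. The entry Mir6236 alone took 15.7% to 49.9% of the sum in HFD estradiol libraries, 10.2% to 47.9% in HFD placebo libraries and 33.1% to 53.1% in LFD libraries. For a 2 kb transcript, 1 scaled FPKM was estimated to stand for 36.7 to 96.6 fragments in HFD estradiol libraries, 35.0 to 221 in HFD placebo libraries and 20.6 to 40.2 in LFD libraries. At a scaled FPKM of 0.1 the same estimate gave 2.06 to 4.02 fragments in LFD libraries, so levels near 0.1 and below rest on a few fragments. Adipocyte markers summed to 1120 to 1616 scaled FPKM in HFD estradiol, 809 to 1345 in HFD placebo and 1143 to 1729 in LFD libraries. Markers of prostate and seminal vesicle epithelium summed to at most 0.389 in all libraries except LFD mouse 5. There Spink3 alone stood at 125 of a sum of 125.3, while Pbsn, Svs2, Svs4, Svs5 and Msmb were at 0 in all LFD libraries. The names of the deposited files carry a lane number, which was taken as the sequencing lane, although the labels give none. By it all HFD estradiol libraries lay on lane 6 and all LFD libraries on lane 5, while HFD placebo mice 1 to 3 lay on lane 5 and mice 4 and 5 on lane 6. HFD estradiol and LFD shared no lane, so lane enters their comparison only through a fit with lane as a term, which takes its lane difference from the HFD placebo libraries. Within the other comparisons the values by lane are given.

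Most of the family was expressed at a low level. The median over all libraries reached 1 scaled FPKM in 4 members, lay between 0.1 and 1 in 20 and stayed below 0.1 in 17. Tnfrsf1a, the widely expressed death-domain receptor of TNF, had the highest median at 4.61. It was followed by Tnfaip1, an adaptor of ubiquitin ligases, at 1.48, by Tnfaip8, a regulator of cell survival, at 1.08, and by the ligand Tnfsf12 (TWEAK) at 1.07. The second TNF receptor, Tnfrsf1b, had a median of 0.970. In all, 22 members were above 0 in every library.

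**Figure D1:**
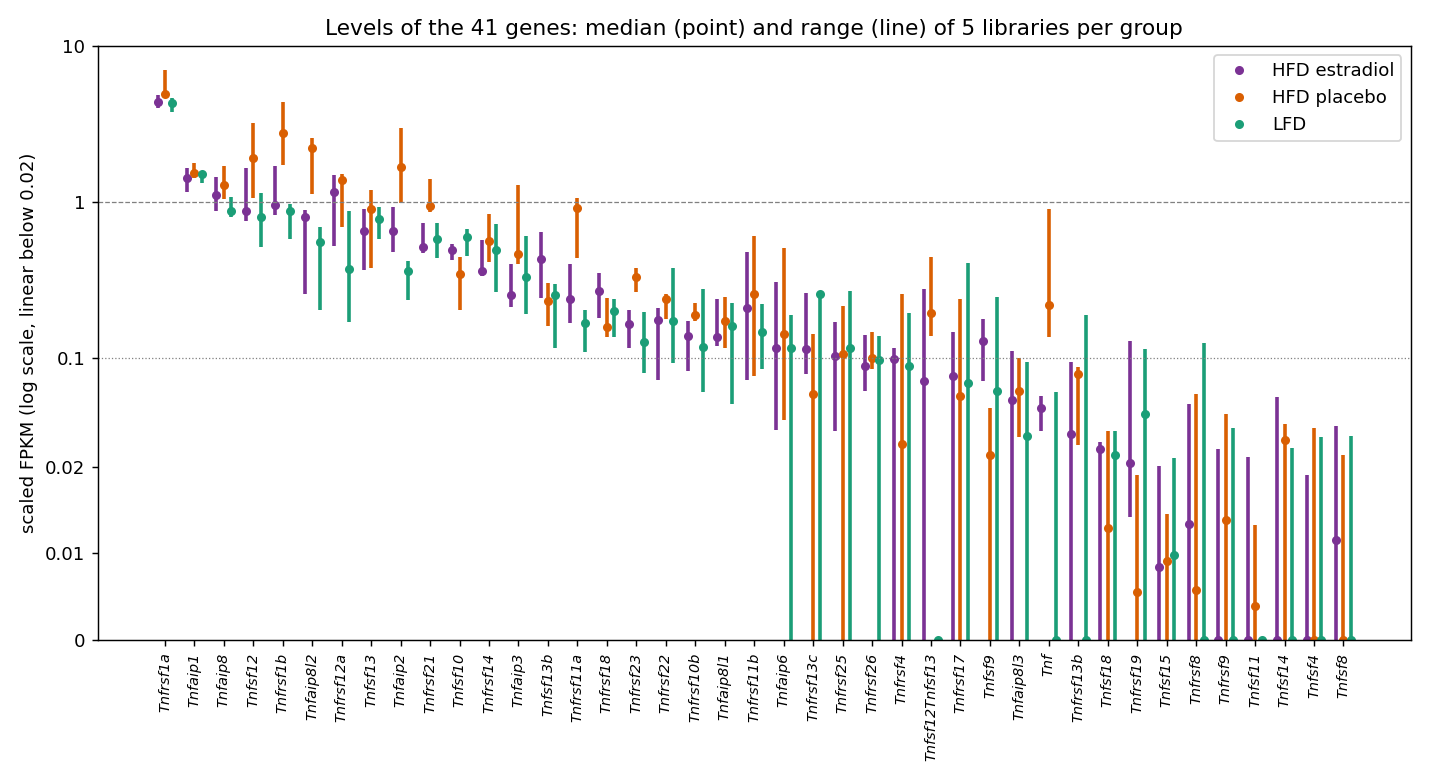
Median (point) and range (line) of the scaled FPKM of 5 libraries per group for each of the 41 members, on a log axis that is linear below 0.02, with dashed and dotted lines at 1 and 0.1. Members run from the highest to the lowest median over all libraries, with Tnfrsf1a at 4.61 on the left, and 17 of them lie below 0.1.

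A member was tested where enough libraries reached a minimum. The first fit took genes that reached 1 scaled FPKM in 5 or more libraries, on the log2(scaled FPKM + 1) scale, and held 5615 genes, 7 of them members. The low-level fit took genes that reached 0.1 in 5 or more libraries, on the log2(scaled FPKM + 0.1) scale, and held 12693 genes, 28 of them members, with 7 ligands, 14 receptors and 7 Tnfaip genes. Below, a log2 difference and its adjusted p come from the first fit for the 7 members in it and from the low-level fit for the others, and both scales understate the change of low genes. Without the HFD placebo libraries, 4 of the 7 members would not have entered the first fit (Tnfsf12, Tnfrsf1b, Tnfaip8 and Tnfaip8l2), nor would Tnf and Tnfsf12Tnfsf13 have entered the low-level fit. Those members passed through the group where they were high and so were bound to differ there to some degree, which limits what their p-values show. The 4 members of the first fit passed the minimum of the low-level fit whichever group was left out, and there they had the same calls. Tnfrsf12a needed both HFD groups, and Tnfsf9 reached 0.1 in 3 HFD estradiol, 0 HFD placebo and 2 LFD libraries. Tnfrsf13c, which passed no test, needed the LFD group. The other 13 members were in neither fit and were not tested. They are the ligands Tnfsf4, Tnfsf8, Tnfsf11, Tnfsf14, Tnfsf15 and Tnfsf18, the receptors Tnfrsf4, Tnfrsf8, Tnfrsf9, Tnfrsf13b, Tnfrsf17 and Tnfrsf19, and Tnfaip8l3. Their highest single value was 0.404, for Tnfrsf17 in LFD mouse 2, and their highest median was 0.0885. Tnfsf11, the ligand of Tnfrsf11a, was listed at 0 in all LFD libraries and reached at most 0.0230 elsewhere.

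On the high-fat diet with placebo, compared with LFD, TNF, its second receptor and several other receptors and Tnfaip genes were higher. In the low-level fit 11 members rose and 1, the ligand Tnfsf10, fell, out of 28. Over all genes of that fit 16.1% rose and 15.6% fell. The median log2 difference of the 28 members was 0.37, against -0.03 over all genes, and 24 of them lay above 0. By role, 3 of 7 ligands, 5 of 14 receptors and 3 of 7 Tnfaip genes rose. In 9 members every HFD placebo library lay above every LFD library, as was so for 10.8% of all genes, and in 1 member, Tnfsf10, every one lay below, as for 9.41% of all genes. Tnf and Tnfsf12Tnfsf13, among both the 11 and the 9, entered the low-level fit only through HFD placebo. Their place in these counts was partly fixed in advance. In the first fit 6 of 7 members rose, where 21.3% of all genes did. Of these, Tnfsf12, Tnfrsf1b, Tnfaip8 and Tnfaip8l2 entered that fit only through HFD placebo, and Tnfrsf12a needed both HFD groups. Their rise was partly fixed in advance, so this count shows little.

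With estradiol, compared with placebo on the same diet, most of the members that were called lay lower, and 3 ligands lay higher. In the low-level fit 10 members fell and 3 rose out of 28, while 11.5% of all genes fell and 9.75% rose. The median log2 difference of the 28 members was -0.29, against 0.03 over all genes, and 23 of them lay below 0. By role, 3 of 7 ligands, 4 of 14 receptors and 3 of 7 Tnfaip genes fell, and the 3 that rose, Tnfsf9, Tnfsf10 and Tnfsf13b, are all ligands. In 8 members every HFD estradiol library lay below every HFD placebo library (8.66% of all genes), and in 1, Tnfsf9, above (8.13% of all genes). Tnf, among the 10 and the 8, and Tnfsf12Tnfsf13, among the 10, entered the low-level fit only through HFD placebo. Tnfsf9 entered it without any HFD placebo library. The place of these members in the counts was partly fixed in advance. In the first fit 3 of 7 members fell, against 16.0% of all genes. Those 3, Tnfsf12, Tnfrsf1b and Tnfaip8l2, entered that fit only through the HFD placebo libraries. Their fall was partly fixed in advance, so this count shows little. This comparison shares its HFD placebo libraries with the one before it, so a member that was high in those libraries enters both. The count with estradiol, 13 in all, was 8 without HFD placebo mouse 2 or 3, 8 without HFD estradiol mouse 3 or 4 and 7 without HFD estradiol mouse 2. It was 2 on sequencing lane 6 alone and 3 with lane as a term.

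Both counts depend on how the libraries are scaled. With the FPKM as deposited, the median gene of the low-level fit lay 0.96 higher in HFD placebo than in LFD and 99.4% of all called genes were higher, against 50.9% with the scaling used here. There 22 members were called higher and none lower. With every library set to the same sum, the median gene lay 0.36 higher, 92.4% of called genes were higher, and 13 members were higher and none lower. For HFD estradiol minus HFD placebo the median gene lay at -0.29 as deposited and at -0.02 with a constant sum, with 5.57% and 27.2% of called genes higher, against 45.9% here. As deposited 5 members were called, all lower, and with a constant sum 10 were lower and 1 higher. For HFD estradiol minus LFD the median gene lay at 0.67 and 0.33, with 97.5% and 94.9% of called genes higher, against 55.1% here.

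**Figure D2:**
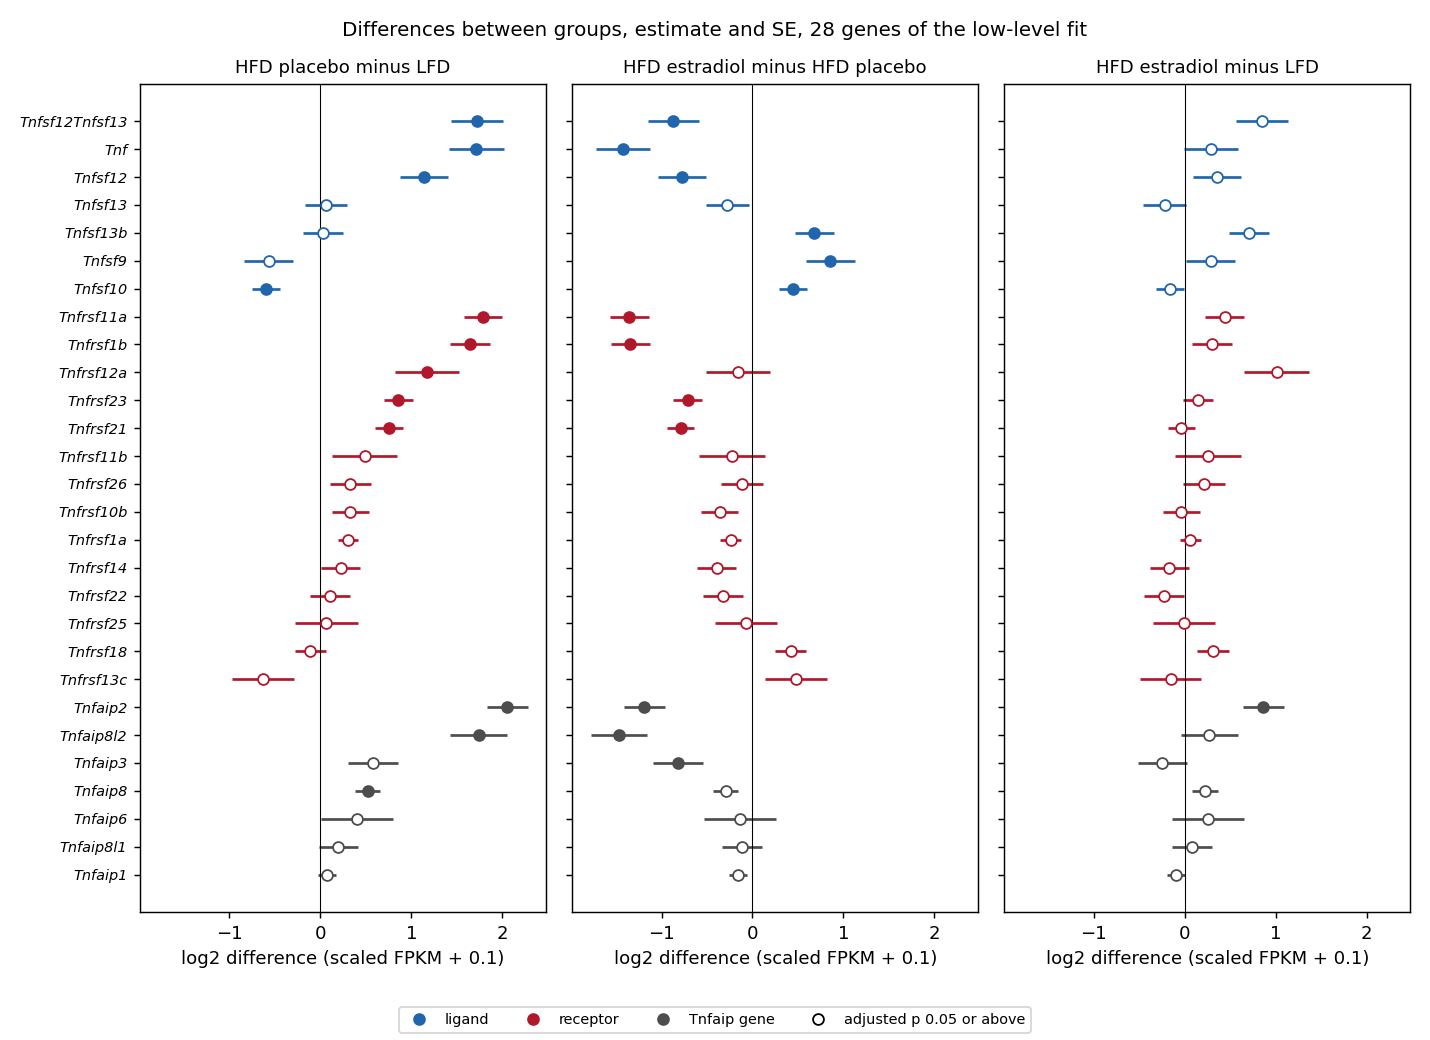
Log2 difference on the log2(scaled FPKM + 0.1) scale with its standard error for the 28 members of the low-level fit, in 3 comparisons of 5 libraries a group, ordered by role and by the first comparison. Filled points have an adjusted p below 0.05 in that fit, with 11 members to the right and 1 to the left in the first panel, 10 to the left and 3 to the right in the second, and Tnfaip2 alone in the third.

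Among the ligands, Tnf (chr17:35199381-35202007, minus strand, mm10), the founding cytokine of the family, was low and was highest in HFD placebo. Tnf had 0.0527, 0.0479, 0.0572, 0.0343 and 0.0341 scaled FPKM in HFD estradiol mice 1 to 5, against 0.277, 0.137, 0.903, 0.219 and 0.210 in HFD placebo mice 1 to 5. LFD mice 1 to 5 had 0.0606, 0, 0.0448, 0 and 0. Every HFD placebo library was above every library of the other groups, and mouse 3 stood far above its group. Tnf reached 0.1 in 0 HFD estradiol, 5 HFD placebo and 0 LFD libraries, so it was tested only because it was high in HFD placebo. HFD placebo minus LFD was 1.71 ± 0.30 (log2 difference ± SE; adjusted p = 3.6e-04). HFD estradiol minus HFD placebo was -1.42 ± 0.30 (adjusted p = 0.0026).

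Tnfsf12 encodes TWEAK, a ligand of Tnfrsf12a. Tnfsf12 had 1.51, 0.789, 0.873, 0.754 and 1.64 scaled FPKM in HFD estradiol mice, against 2.03, 3.20, 1.90, 1.07 and 1.76 in HFD placebo mice and 0.767, 0.805, 1.14, 0.906 and 0.510 in LFD mice. HFD estradiol mice 1 and 5 and HFD placebo mouse 4 overlapped with the neighbouring group. The log2 difference was 0.68 ± 0.16 between HFD placebo and LFD (adjusted p = 0.0031) and -0.49 ± 0.16 between HFD estradiol and HFD placebo (adjusted p = 0.033), and the second was lost under 11 of 20 alternative settings. Those include leaving out HFD estradiol mouse 2, 3 or 4 or HFD placebo mouse 1, 2 or 3, and the adjusted p ran from 0.0033 to 0.57 over all of them. The gene lies beside Tnfsf13 (APRIL) on chromosome 11, and a read-through entry, Tnfsf12Tnfsf13, was listed as a row of its own. Of the 50-base stretches of the annotated transcripts, 46.8% of those of Tnfsf12 and 57.3% of those of Tnfsf13 also occur in another annotated gene, the read-through one, so how reads were divided among the 3 rows is uncertain. The read-through entry Tnfsf12Tnfsf13 had 0.0753, 0.0707, 0.275, 0.0709 and 7.52e-10 scaled FPKM in HFD estradiol mice, against 0.442, 0.278, 0.172, 0.194 and 0.138 in HFD placebo mice, while no LFD library exceeded 0.000125. It reached 0.1 in 1 HFD estradiol, 5 HFD placebo and 0 LFD libraries, so it was tested only because it was high in HFD placebo. Its log2 differences were 1.72 ± 0.29 for HFD placebo minus LFD (adjusted p = 2.3e-04) and -0.87 ± 0.29 for HFD estradiol minus HFD placebo (adjusted p = 0.039). The second was lost under 11 of 18 alternatives, 6 of them without 1 mouse (HFD estradiol mouse 1, 2, 4 or 5, HFD placebo mouse 1 or 2), with an adjusted p of 0.0043 to 0.48. Tnfsf13 itself passed no test, with 0.649 ± 0.195 in HFD estradiol, 0.828 ± 0.298 in HFD placebo and 0.754 ± 0.130 in LFD mice.

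Tnfsf10, Tnfsf13b and Tnfsf9 were the ligands that rose with estradiol. Tnfsf10 (TRAIL, a ligand of death receptors) averaged 0.484 ± 0.0409 scaled FPKM in HFD estradiol, 0.336 ± 0.0883 in HFD placebo and 0.556 ± 0.0994 in LFD mice (SD, n = 5 each). Every HFD placebo library lay below every LFD library, and the difference was -0.60 ± 0.15 (adjusted p = 0.0064). This sign depends on the scaling of libraries, since the FPKM as deposited gave 0.40 (adjusted p = 0.41). HFD estradiol minus HFD placebo was 0.44 ± 0.15 (adjusted p = 0.049), a call lost under 15 of 18 alternatives, with an adjusted p of 0.022 to 0.96 over them. It was lost without any mouse of the 2 groups except HFD estradiol mouse 1 and HFD placebo mouse 4.

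Tnfsf13b (BAFF), a survival factor of B cells, averaged 0.432 ± 0.160 scaled FPKM in HFD estradiol, 0.224 ± 0.0538 in HFD placebo and 0.222 ± 0.0734 in LFD mice. It rose with estradiol by 0.68 ± 0.22 on the log2 scale (adjusted p = 0.034). The call was lost under 12 of 18 alternatives, among them without HFD estradiol mouse 1, 2 or 3 or HFD placebo mouse 2, 3, 4 or 5, and the adjusted p ran from 0.013 to 0.86. HFD placebo minus LFD was 0.03 ± 0.22 (adjusted p = 0.94). Tnfsf9 (4-1BB ligand, a costimulator of T cells) had 0.0712, 0.178, 0.129, 0.162 and 0.0919 scaled FPKM in HFD estradiol mice, all above 0, 0.0475, 0.0238, 0.0153 and 0.0345 in HFD placebo mice. LFD mice had 0.127, 0.247, 0.0604, 0 and 0.0609 and overlapped with both. HFD estradiol minus HFD placebo was 0.86 ± 0.27 (adjusted p = 0.031). That call was lost under 11 of 18 alternatives, among them without HFD estradiol mouse 2, 3 or 4 or HFD placebo mouse 1, 3 or 4, with an adjusted p of 0.0049 to 0.25. Tnfsf9 reached 0.1 in 3 HFD estradiol, 0 HFD placebo and 2 LFD libraries, so it was tested only because it was higher outside HFD placebo. Its difference from HFD placebo was thus partly fixed in advance. Markers of B and plasma cells, 8 of 9 found and none at 0 throughout a group, summed to 3.14 to 11.8 scaled FPKM in HFD estradiol, 2.30 to 7.67 in HFD placebo and 9.54 to 16.6 in LFD libraries. Their part in the values of Tnfsf13b was not tested.

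**Figure D3:**
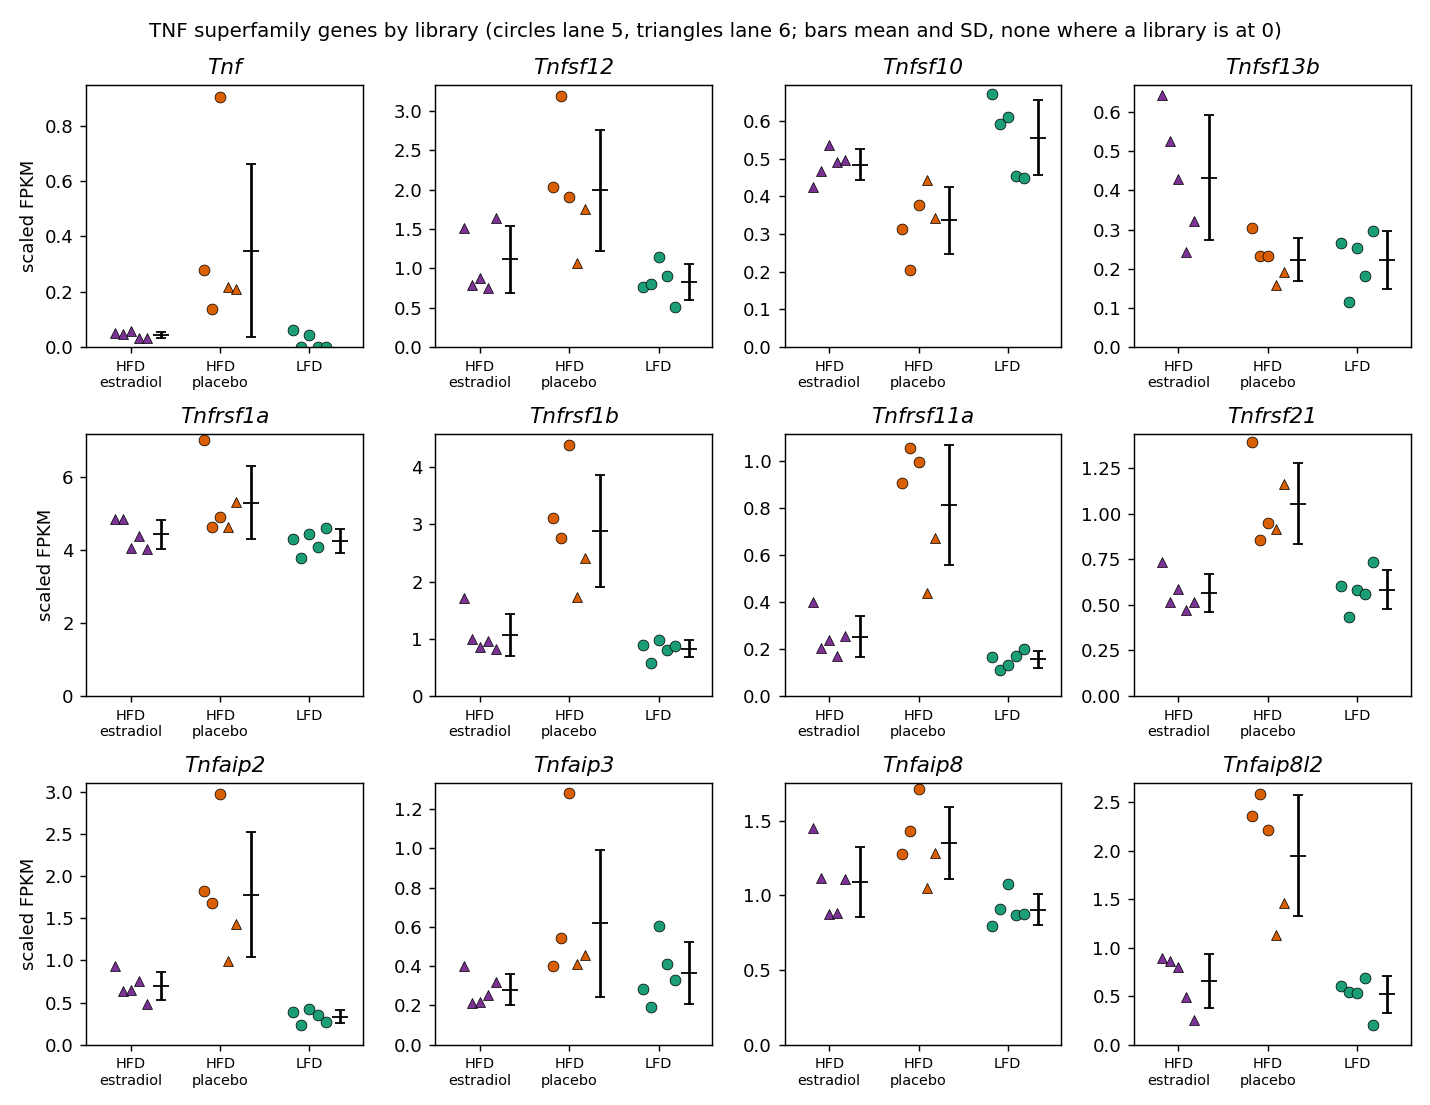
Scaled FPKM of 12 members in each of 15 libraries, with HFD estradiol on the left, HFD placebo in the middle and LFD on the right of each panel; circles are lane 5, triangles lane 6, and bars give the mean and SD of 5 libraries, left out where a library is at 0. In Tnf, Tnfrsf1b, Tnfrsf11a, Tnfrsf21, Tnfaip2 and Tnfaip8l2 all HFD placebo points lie above all other points, and in Tnfsf10 they lie below all LFD points.

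TNF itself binds a pair of receptors. Tnfrsf1a (chr6:125349362-125362484, plus strand) had 4.83, 4.84, 4.06, 4.39 and 4.01 scaled FPKM in HFD estradiol mice, against 7.01, 4.61, 4.90, 4.62 and 5.32 in HFD placebo mice and 4.29, 3.76, 4.42, 4.07 and 4.61 in LFD mice. The HFD placebo libraries lay just above the LFD libraries, the lowest at 4.613 against 4.607 for LFD mouse 5, and most of the spread came from HFD placebo mouse 1. The rise over LFD was 0.26 ± 0.09 (adjusted p = 0.038), 1.25 times in the group means, and was lost under 9 of 19 alternatives, with an adjusted p of 0.0070 to 0.096. It was lost without HFD placebo mouse 1 or 5 and without LFD mouse 1, 2 or 4. HFD estradiol minus HFD placebo was -0.20 ± 0.09 (adjusted p = 0.12).

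Tnfrsf1b (chr4:145213463-145246870, minus strand), the inducible receptor found above all on immune cells, had 1.71, 0.987, 0.852, 0.955 and 0.825 scaled FPKM in HFD estradiol mice. HFD placebo mice had 3.11, 2.76, 4.39, 1.73 and 2.42, and LFD mice had 0.886, 0.577, 0.970, 0.812 and 0.878. HFD placebo libraries lay above all others, and in the HFD estradiol group mouse 1 stood apart from mice 2 to 5. The mean in HFD placebo was 3.50 times that in LFD, a log2 difference of 1.06 ± 0.15 (adjusted p = 3.5e-05). HFD estradiol was 2.71-fold lower than HFD placebo, with -0.89 ± 0.15 on the log2 scale (adjusted p = 2.9e-04). Both calls held under every alternative to the first fit (19 and 20 settings). In the low-level fit the estradiol call was lost on lane 6 alone (-0.93, adjusted p = 0.060). Across those settings the estradiol difference ran from -1.34 to -0.58.

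Tnfrsf12a (Fn14), the receptor of TWEAK, had 0.521, 1.48, 1.17, 1.49 and 0.634 scaled FPKM in HFD estradiol mice, 1.39, 0.692, 0.799, 1.51 and 1.40 in HFD placebo mice and 0.168, 0.874, 0.748, 0.317 and 0.372 in LFD mice. Each group was spread widely and the groups overlapped. The rise of HFD placebo over LFD was 0.53 ± 0.17 (adjusted p = 0.019) and lost its call without LFD mouse 1 (0.45, adjusted p = 0.051) and with lane in the fit or lane 5 alone (0.40, adjusted p = 0.11 in both). HFD estradiol minus HFD placebo was -0.08 ± 0.17 (adjusted p = 0.77).

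Tnfrsf11a (RANK), known from osteoclast development and also made by monocytes and macrophages, had 0.398, 0.206, 0.238, 0.168 and 0.255 scaled FPKM in HFD estradiol mice, 0.907, 1.06, 0.995, 0.439 and 0.673 in HFD placebo mice and 0.168, 0.109, 0.134, 0.172 and 0.201 in LFD mice. The lowest HFD placebo value, in mouse 4, was above the highest value of the other groups, in HFD estradiol mouse 1. The group mean in HFD placebo was 5.20 times that in LFD, with a log2 difference of 1.79 ± 0.21 (adjusted p = 9.7e-06). HFD estradiol was 3.22-fold lower than HFD placebo, with -1.35 ± 0.21 (adjusted p = 2.5e-04), a call lost on lane 6 alone (-0.90, adjusted p = 0.064). Its decoy receptor counterpart Tnfrsf11b (osteoprotegerin), which binds the same ligand, passed no test, with 0.213 ± 0.165 in HFD estradiol, 0.270 ± 0.207 in HFD placebo and 0.140 ± 0.0526 in LFD mice.

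Tnfrsf21 (DR6), a death-domain receptor, had 0.734, 0.515, 0.588, 0.472 and 0.515 scaled FPKM in HFD estradiol mice, 1.39, 0.858, 0.947, 0.916 and 1.17 in HFD placebo mice and 0.601, 0.434, 0.580, 0.562 and 0.734 in LFD mice. All HFD placebo libraries were above all others. The log2 difference was 0.75 ± 0.15 between HFD placebo and LFD (adjusted p = 0.0010) and -0.79 ± 0.15 between HFD estradiol and HFD placebo (adjusted p = 0.0012), and the second lost its call only with the FPKM as deposited, out of 18 alternatives. Tnfrsf23, a decoy receptor for TRAIL in mice, averaged 0.161 ± 0.0370 scaled FPKM in HFD estradiol, 0.327 ± 0.0489 in HFD placebo and 0.138 ± 0.0463 in LFD mice. Its log2 differences were 0.86 ± 0.16 (adjusted p = 6.9e-04) for HFD placebo minus LFD and -0.71 ± 0.16 (adjusted p = 0.0045) for HFD estradiol minus HFD placebo. The second was lost with the FPKM as deposited, with lane as a term (-0.54, adjusted p = 0.16) and on lane 6 alone (-0.54, adjusted p = 0.13). It lies with Tnfrsf22 and Tnfrsf26 in a cluster on chromosome 7 from 143607659 to 143685872 (mm10), and neither neighbour passed a test. Of the 50-base stretches of its transcripts, 18.01% also occur in Tnfrsf22, so the division of reads between the pair is uncertain.

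The other 8 receptors of the low-level fit, Tnfrsf10b, Tnfrsf11b, Tnfrsf13c, Tnfrsf14, Tnfrsf18, Tnfrsf22, Tnfrsf25 and Tnfrsf26, passed no test. Their medians over all libraries ran from 0.0980 for Tnfrsf26 to 0.416 for Tnfrsf14 (HVEM), whose highest value was 0.831. The smallest adjusted p among them was 0.092, for Tnfrsf18 (GITR, a receptor of regulatory T cells) between HFD estradiol, at 0.266 ± 0.0779, and HFD placebo, at 0.171 ± 0.0425. T and NK cell markers, 7 of 8 found, summed to no more than 0.616 in HFD estradiol, 1.42 in HFD placebo and 1.39 in LFD libraries.

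Among the Tnfaip genes, Tnfaip2, a cytosolic protein induced by TNF in endothelial and myeloid cells, differed most between HFD placebo and LFD. It had 0.930, 0.642, 0.654, 0.756 and 0.480 scaled FPKM in HFD estradiol mice, 1.82, 1.68, 2.97, 0.989 and 1.43 in HFD placebo mice and 0.385, 0.233, 0.419, 0.359 and 0.268 in LFD mice. The 3 groups did not overlap, with HFD placebo on top and HFD estradiol between it and LFD. HFD placebo minus LFD was 2.06 ± 0.23 (adjusted p = 5.1e-06), and HFD estradiol minus HFD placebo was -1.19 ± 0.23 (adjusted p = 0.0012). The estradiol call was lost with lane as a term (-0.73, adjusted p = 0.10) and on lane 6 alone (-0.73, adjusted p = 0.082).

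Tnfaip8l2 (TIPE2), which restrains receptor signalling in immune cells, had 0.891, 0.869, 0.802, 0.490 and 0.255 scaled FPKM in HFD estradiol mice, 2.36, 2.58, 2.22, 1.13 and 1.46 in HFD placebo mice and 0.611, 0.549, 0.537, 0.693 and 0.203 in LFD mice. All HFD placebo libraries lay above all others, with mice 4 and 5, the lane 6 libraries, the lowest of them. HFD placebo minus LFD was 0.94 ± 0.15 (adjusted p = 1.3e-04) and HFD estradiol minus HFD placebo -0.82 ± 0.15 (adjusted p = 7.1e-04). The estradiol call was lost with lane as a term (-0.48, adjusted p = 0.057) and on lane 6 alone (-0.48, adjusted p = 0.10). Tnfaip8, of the same family, had 1.45, 1.12, 0.876, 0.884 and 1.11 in HFD estradiol mice, 1.28, 1.43, 1.71, 1.05 and 1.28 in HFD placebo mice and 0.796, 0.910, 1.08, 0.870 and 0.872 in LFD mice. Its groups overlapped; the rise over LFD was 0.30 ± 0.08 (adjusted p = 0.0077) and held under all 19 alternatives, and HFD estradiol minus HFD placebo was -0.17 ± 0.08 (adjusted p = 0.13).

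Tnfaip3 (A20) averaged 0.281 ± 0.0790 scaled FPKM in HFD estradiol, 0.619 ± 0.374 in HFD placebo and 0.364 ± 0.157 in LFD mice (SD, n = 5 each). All HFD estradiol libraries lay below all HFD placebo libraries, though narrowly, at a highest value of 0.400 against a lowest of 0.402. The fall with estradiol was -0.82 ± 0.27 (adjusted p = 0.042) and lost its call under 11 of 18 alternatives, with an adjusted p of 0.032 to 0.49. Among these were the fits without HFD estradiol mouse 2, 3, 4 or 5 and without HFD placebo mouse 2, 3 or 5. HFD placebo minus LFD was 0.58 ± 0.27 (adjusted p = 0.12). Tnfaip1, Tnfaip6, a hyaluronan-binding protein, and Tnfaip8l1 passed no test in any comparison, with medians over all libraries of 1.48, 0.116 and 0.157 in that order.

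Promoter sequences are given below for 5 of the members that were lower with estradiol, from the ligands, the receptors and the Tnfaip genes. Each line is the 250 bases before the gene start from RefSeq (GRCm38.p6), 5′ to 3′ on the strand of the gene. The windows are Tnf at chr17:35202008-35202257 (minus strand), Tnfrsf1b at chr4:145246871-145247120 (minus), Tnfaip2 at chr12:111442411-111442660 (plus), Tnfaip3 at chr10:19015411-19015660 (minus) and Tnfaip8l2 at chr3:95142355-95142604 (minus). Capitals mark the matches, on either strand, to the kappaB consensus, to the AP-1 motif TGACTCA and to GGTCA, an arm of the estrogen response element, which on the opposite strand reads TGACC.
Tnf: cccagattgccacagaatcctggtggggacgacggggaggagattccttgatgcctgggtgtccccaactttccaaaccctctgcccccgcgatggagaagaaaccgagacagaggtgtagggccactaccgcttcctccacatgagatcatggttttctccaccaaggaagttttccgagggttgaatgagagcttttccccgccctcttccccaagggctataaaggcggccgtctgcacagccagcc
Tnfrsf1b: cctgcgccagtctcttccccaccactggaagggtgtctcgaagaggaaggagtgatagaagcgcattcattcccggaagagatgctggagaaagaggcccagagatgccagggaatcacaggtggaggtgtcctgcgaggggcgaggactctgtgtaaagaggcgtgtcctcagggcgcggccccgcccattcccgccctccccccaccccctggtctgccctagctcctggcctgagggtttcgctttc
Tnfaip2: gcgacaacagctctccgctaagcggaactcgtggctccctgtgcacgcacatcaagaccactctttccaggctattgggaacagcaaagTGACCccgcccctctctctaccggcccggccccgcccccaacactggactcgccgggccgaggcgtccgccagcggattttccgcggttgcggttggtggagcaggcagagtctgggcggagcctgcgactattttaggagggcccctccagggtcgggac
Tnfaip3: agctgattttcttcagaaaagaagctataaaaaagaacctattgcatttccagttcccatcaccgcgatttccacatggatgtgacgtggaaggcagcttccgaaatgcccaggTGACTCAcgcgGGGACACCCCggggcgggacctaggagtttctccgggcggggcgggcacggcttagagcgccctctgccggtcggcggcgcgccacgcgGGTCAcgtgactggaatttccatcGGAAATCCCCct
Tnfaip8l2: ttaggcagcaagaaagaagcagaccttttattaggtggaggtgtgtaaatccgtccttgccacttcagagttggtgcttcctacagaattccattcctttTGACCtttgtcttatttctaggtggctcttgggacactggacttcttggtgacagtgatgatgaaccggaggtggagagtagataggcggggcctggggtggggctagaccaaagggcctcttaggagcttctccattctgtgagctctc

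Tnfaip3 held 2 matches to the kappaB consensus, 125 to 116 and 12 to 3 bases before its start, an AP-1 match at 136 to 130 and a GGTCA match at 36 to 32. A second window of Tnfaip3 in the same table, at chr10:19011964-19012213 (minus strand), held no match to any of the 3. Tnfaip2 held GGTCA on the opposite strand 161 to 157 bases before its start, and Tnfaip8l2 at 150 to 146. These starts are those of RefSeq. In the annotation that gave the positions of Tnf and its receptors, Tnfaip3 starts at 19015657 and Tnfaip2 at 111442469. By that annotation most of the first Tnfaip3 window and of the Tnfaip2 window lies inside the gene. No letters of the Tnf and Tnfrsf1b windows matched, which says only that these motifs are not in these 250 bases. The windows of Tnfrsf11a, Tnfrsf21 and Tnfrsf23, which were also lower with estradiol and are not printed, held no match either. Chromosome 18, where Tnfaip8 lies, was left out of the members' windows but not of the shares over all genes. Outside it 32 of the 41 members had a window in the table, 37 windows in all. A kappaB match stood in the windows of 4 members (Tnfrsf8, Tnfrsf9, Tnfaip3 and Tnfaip8l1), and 4.46% of 27025 genes had one in a window (3.90% of 32851 windows). AP-1 matched in 7 members, against 5.16% of all genes, and GGTCA in 9, against 38.4%. The full palindromic estrogen response element, which contains GGTCA on both strands, was in none of the members' windows and in those of 0.0666% of all genes.

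The estradiol differences were smaller within lane 6. There 5 HFD estradiol libraries met HFD placebo mice 4 and 5, and all 13 members called in the low-level fit kept their sign, 12 of them with a smaller difference and Tnfsf13b with a larger one. The low-level fit called 2 of 28 members on lane 6 alone, Tnf (-1.12, adjusted p = 0.014) and Tnfrsf21 (-0.78, adjusted p = 0.033), where it called 7.33% of all genes. The first fit also called Tnfrsf1b there (-0.58, adjusted p = 0.047). With lane as a term, where the estimate is the same by construction, the low-level fit called 3 members, Tnfrsf1b, Tnfrsf11a (-0.90, adjusted p = 0.028) and Tnfrsf21, and 6.47% of all genes. Tnf then had an adjusted p of 0.11. Against HFD placebo mice 1 to 3 of lane 5 alone, 11 members were called and 19.5% of all genes. For HFD placebo minus LFD, lane 5 alone (3 against 5 libraries) called 11 members and 23.7% of all genes, and all 12 members called in the low-level fit kept their sign, 11 of them with a larger difference.

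**Figure D4:**
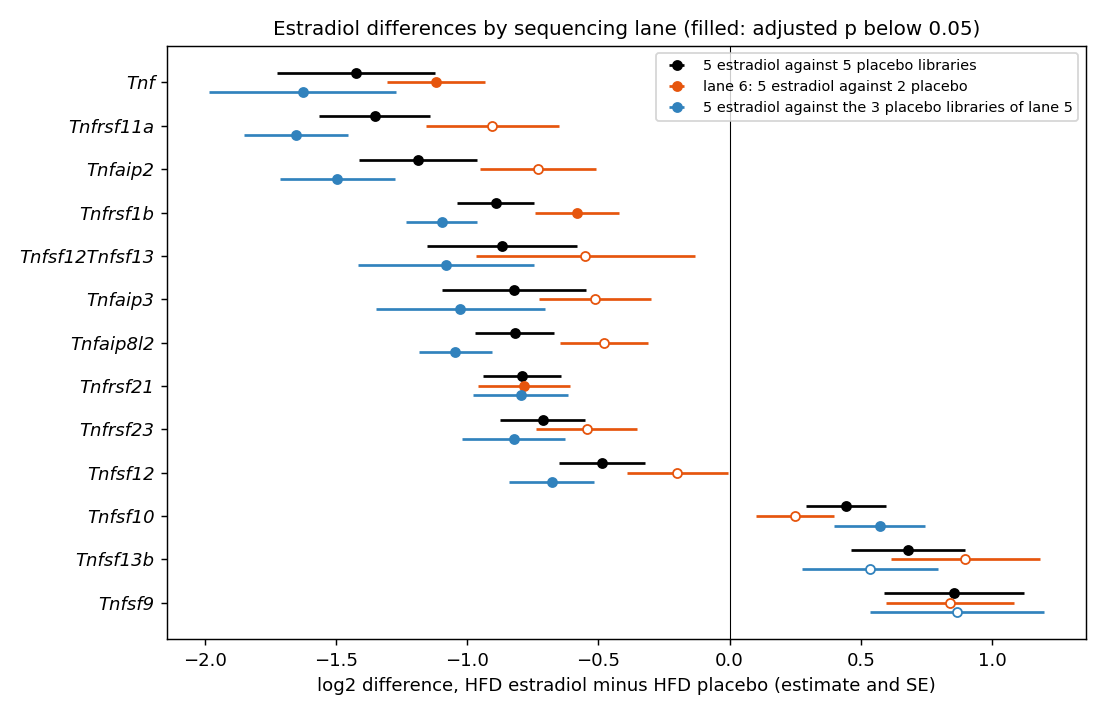
Log2 difference of HFD estradiol minus HFD placebo with its standard error for the 13 members called in the low-level fit, each from the fit that gives its reported value: all libraries (black), lane 6 only (orange, 5 against 2) and HFD estradiol against the 3 HFD placebo libraries of lane 5 (blue). Filled points have an adjusted p below 0.05; all differences keep their sign, and Tnf, Tnfrsf1b and Tnfrsf21 are filled on lane 6.

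Macrophage markers moved in the direction of most of the called members. Of 7 listed symbols 6 were found (Cd68, Csf1r, Emr1, Itgam, Lyz2 and Mrc1). In the first fit all 6 rose in HFD placebo over LFD, and 5 of 6 fell in HFD estradiol against HFD placebo. The fall of Csf1r missed the threshold in the low-level fit (adjusted p = 0.0502). The summed level of the 6 was 45.8 to 124 scaled FPKM in HFD estradiol, 114 to 370 in HFD placebo and 35.3 to 97.9 in LFD libraries, and none was at 0 in any group. HFD placebo mouse 3 had the highest sum, 370, and of the 11 members that rose over LFD 5 were highest in that mouse of the group (Tnf, Tnfrsf1b, Tnfrsf23, Tnfaip2 and Tnfaip8). Mouse 2 had the highest value of 3 of them, mouse 1 of 2 and mouse 4 of 1. HFD estradiol mouse 1 had the highest sum of its group, 124, and the highest value of 6 of the 11, while mouse 3 had that of 3. Adipocyte markers moved the other way: 5 of 6 fell and 1 rose in HFD placebo against LFD, and 4 rose and 1 fell with estradiol. Of 5 adipose progenitor and fibroblast markers in the first fit, 2 rose in HFD placebo against LFD, and 1 rose and 1 fell with estradiol. Of 5 endothelial markers 1 fell in HFD placebo against LFD and 1 rose with estradiol. The part of these cell types in the members' differences was not tested.

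Between HFD estradiol and LFD few members were called. None of the 7 members of the first fit was called with limma, where 7.69% of all genes were, and 1 of them, Tnfrsf12a, had an unadjusted p below 0.05, as had 21.3% of all genes. The low-level fit called 1 of 28, Tnfaip2, where 3.90% of all genes were called, and 4 had an unadjusted p below 0.05, as had 17.2% of all genes. Tnfaip2 lay 0.87 ± 0.23 higher in HFD estradiol (adjusted p = 0.040), 2.08 times the LFD mean, a call lost under 10 of 17 alternatives. It was lost without HFD estradiol mouse 1, 2, 3 or 4 and without LFD mouse 1, 2, 4 or 5, and the adjusted p ran from 0.0059 to 0.17. With lane as a term Tnfaip2 was again the 1 member called (1.63, adjusted p = 0.039). The differences of Tnf (0.29 ± 0.30, adjusted p = 0.68), Tnfrsf1b (0.17 ± 0.15, adjusted p = 0.55) and Tnfrsf11a (0.44 ± 0.21, adjusted p = 0.30) missed the threshold, which does not show that the groups were equal. In the low-level fit, lane as a term moved Tnfrsf1b from 0.30 to 0.99 ± 0.33 (adjusted p = 0.19). It moved Tnfaip8l2 from 0.27 to 1.12 ± 0.50 (adjusted p = 0.34) and Tnfsf12 from 0.36 to 1.07 ± 0.42 (adjusted p = 0.27). Tnfrsf12a went the other way, from 1.01 to 0.40 ± 0.61 (adjusted p = 0.85). Tnfsf13b was 0.71 ± 0.22 higher (adjusted p = 0.084). Macrophage markers were called higher in 2 of 6, Cd68 and Mrc1.

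Genes that carry the signal onward were examined in 4 lists from general knowledge, of receptors and ligands under other symbols, of adaptors and kinases, of NF-kappaB, and of shedding proteases. In the low-level fit 7 of 30 adaptors, ligases and kinases rose and 2 fell in HFD placebo over LFD. With estradiol against placebo 2 of these 30 rose and 4 fell. Of 15 NF-kappaB subunits, inhibitors and kinases 6 rose in HFD placebo over LFD and none fell, while with estradiol 4 fell and none rose. Of the 4 shedding proteases and their regulators 2 rose over LFD and 1 fell with estradiol. Among all genes of the fit, 16.1% rose and 15.6% fell for HFD placebo against LFD, 31.6% in either direction. For HFD estradiol against HFD placebo 9.75% rose and 11.5% fell, 21.3% in either direction. The adaptors, ligases and kinases called in either direction lay near these shares in both comparisons, so their counts do not set that list apart.

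Tnip3, an A20-binding inhibitor of NF-kappaB induced in myeloid cells, had 0.142, 0.0330, 0.00763, 0.0481 and 0.0961 scaled FPKM in HFD estradiol mice, 0.546, 0.682, 1.00, 0.336 and 0.443 in HFD placebo mice and 0.0879, 0, 0, 0.0462 and 0.0542 in LFD mice. HFD placebo stood above both other groups in every library. Tnip3 reached the minimum of 0.1 in 5 HFD placebo libraries and 1 other, so it was tested only because it was high in that group. It rose by 2.32 ± 0.27 over LFD (adjusted p = 1.0e-05) and HFD estradiol minus HFD placebo was -2.07 ± 0.27 (adjusted p = 6.7e-05; -1.62 on lane 6, adjusted p = 0.021). Its relatives Tnip2 and Tnip1 also rose over LFD, by 0.69 ± 0.10 (adjusted p = 1.0e-04) and 0.52 ± 0.09 (adjusted p = 2.9e-04). Neither relative was called between HFD estradiol and HFD placebo. Both were higher in HFD estradiol than in LFD, Tnip2 by 0.40 and Tnip1 by 0.33 (adjusted p = 0.039 each). Those calls were lost under 12 of 17 and 13 of 19 alternatives. Ripk3, a kinase of programmed necrosis, and Otulin, which removes linear ubiquitin, fell with estradiol by 0.99 ± 0.24 (adjusted p = 0.0071) and by 0.37 ± 0.10 (adjusted p = 0.0094). Otulin would not have entered the first fit without the HFD placebo libraries. Map3k5 (ASK1), a stress kinase, and Tab3, an adaptor of the kinase TAK1, ran the other way. Map3k5 averaged 1.17 ± 0.130 scaled FPKM in HFD estradiol, 0.760 ± 0.0744 in HFD placebo and 0.979 ± 0.150 in LFD mice (SD, n = 5 each). HFD placebo minus LFD was -0.17 ± 0.06 (adjusted p = 0.041), a call lost under 13 of 19 alternatives, 7 of them without 1 mouse (HFD placebo mouse 1, 2, 3 or 5, LFD mouse 1, 2 or 5). Its sign turned with the FPKM as deposited (0.44, adjusted p = 0.13) and with a constant sum (0.053, adjusted p = 0.76). Map3k5 rose with estradiol by 0.30 ± 0.06 (adjusted p = 0.0017), and it would not have entered the first fit without the HFD estradiol libraries. Tab3 averaged 0.768 ± 0.212 in HFD estradiol, 0.418 ± 0.0621 in HFD placebo and 0.820 ± 0.182 in LFD mice. For Tab3, HFD placebo minus LFD was -0.82 ± 0.16 (adjusted p = 0.0011), and its sign turned with the FPKM as deposited (0.21, adjusted p = 0.67). Tab3 rose with estradiol by 0.72 ± 0.16 (adjusted p = 0.0044).

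Within NF-kappaB, Nfkb2, whose product p100 serves the non-canonical pathway, had 0.844, 0.676, 0.674, 0.591 and 0.577 scaled FPKM in HFD estradiol mice, 1.30, 1.18, 1.50, 0.942 and 1.21 in HFD placebo mice and 0.548, 0.465, 0.703, 0.634 and 0.608 in LFD mice. HFD placebo libraries were above all others, with log2 differences of 0.94 ± 0.13 over LFD (adjusted p = 5.8e-05) and -0.78 ± 0.13 for HFD estradiol minus HFD placebo (adjusted p = 5.5e-04; -0.61 on lane 6, adjusted p = 0.058). Ikbke, an NF-kappaB and interferon kinase, rose over LFD by 1.40 ± 0.28 (adjusted p = 0.0011), and HFD estradiol minus HFD placebo was -0.96 ± 0.28 (adjusted p = 0.021), a call lost under 5 of 18 alternatives, among them without HFD estradiol mouse 3 or 5. Nfkbie, an inhibitor, rose over LFD by 1.09 ± 0.26 (adjusted p = 0.0038). The kinase Tbk1 fell with estradiol by 0.25 ± 0.08 (adjusted p = 0.024), a call lost under 9 of 20 alternatives, among them without HFD estradiol mouse 3 or 4 or HFD placebo mouse 3 or 5. Adam17, the protease that releases TNF, averaged 1.10 ± 0.198 scaled FPKM in HFD estradiol, 1.96 ± 0.515 in HFD placebo and 1.00 ± 0.144 in LFD mice. Its log2 differences were 0.55 ± 0.10 over LFD (adjusted p = 3.7e-04) and -0.48 ± 0.10 for HFD estradiol minus HFD placebo (adjusted p = 0.0016; -0.30 on lane 6, adjusted p = 0.077). Adam10, a related protease, fell with estradiol in the first fit, by 0.21 ± 0.07 (adjusted p = 0.041), a call lost under 15 of 20 alternatives, among them without HFD estradiol mouse 2, 3, 4 or 5 or HFD placebo mouse 1, 2, 3 or 5. Rhbdf2, which escorts Adam17 to the surface, rose over LFD by 0.64 ± 0.13 (adjusted p = 0.0013) and was also higher in HFD estradiol than in LFD by 0.59 ± 0.13 (adjusted p = 0.018), a call lost under 3 of 17 alternatives, among them without HFD estradiol mouse 1.

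Of the 14 superfamily genes under other symbols, 8 were in the low-level fit, and 1 was called in each comparison. Ltbr, the lymphotoxin beta receptor, averaged 2.62 ± 0.229 scaled FPKM in HFD estradiol, 3.17 ± 0.279 in HFD placebo and 2.61 ± 0.323 in LFD mice. It rose over LFD by 0.21 ± 0.07 (adjusted p = 0.028), and HFD estradiol minus HFD placebo was -0.20 ± 0.07 (adjusted p = 0.044), both in the first fit. The rise was lost under 8 of 19 alternatives, among them without HFD placebo mouse 1, 2 or 5 or LFD mouse 2 or 4. The estradiol call was lost under 15 of 20, among them without HFD estradiol mouse 1, 3 or 4 or HFD placebo mouse 1, 2, 3 or 5. Ngfr, the p75 receptor of neurotrophins and a member of the TNF receptor superfamily, had 0.409, 0.917, 0.450, 0.374 and 0.534 scaled FPKM in HFD estradiol mice. HFD placebo mice had 0.0639, 0, 0.0549, 0.0378 and 0.0312, and LFD mice had 0.0698, 0.109, 0.0400, 0.0514 and 0.0402. All HFD estradiol libraries lay above all others, and the HFD placebo and LFD groups overlapped. Ngfr reached the minimum of 0.1 in 5 HFD estradiol libraries and 1 other, so it was tested only because it was high in that group. HFD estradiol minus HFD placebo was 2.17 ± 0.21 (adjusted p = 5.2e-06), 2.19 within lane 6 (adjusted p = 0.0056), and HFD estradiol minus LFD was 1.93 ± 0.21 (adjusted p = 7.0e-05). Of the 13 pathway genes named here with a call between HFD estradiol and HFD placebo, Tnip3 and Ngfr kept it on lane 6 alone and 3 kept it with lane as a term (these and Nfkb2). With the FPKM as deposited 3 kept it (Tnip3, Ngfr and Ripk3).

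**Figure D5:**
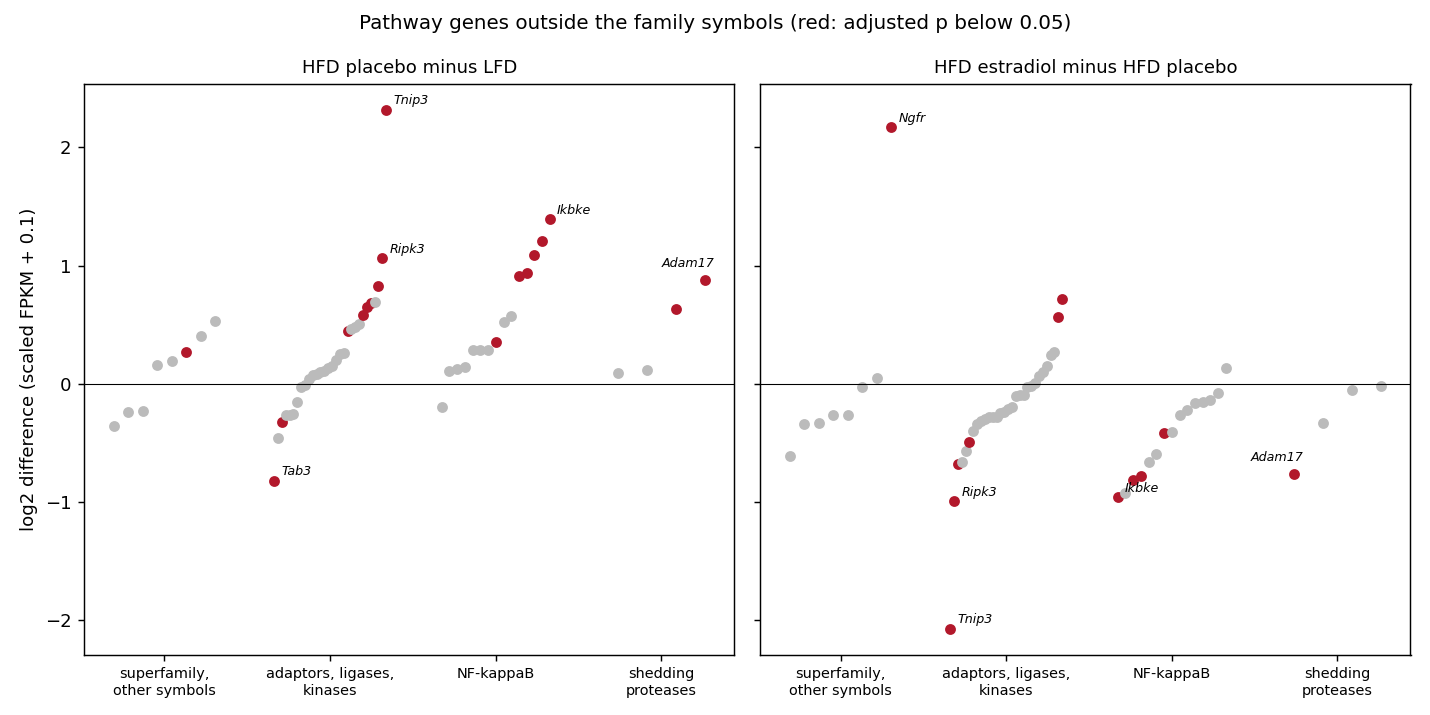
Log2 difference on the log2(scaled FPKM + 0.1) scale of the pathway genes in the low-level fit, grouped by list and ordered by size within a list, for HFD placebo minus LFD (left) and HFD estradiol minus HFD placebo (right). Red points have an adjusted p below 0.05; Tnip3 is at 2.32 on the left and -2.07 on the right, and Ngfr at 2.17 on the right.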

How the data were processed

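Total RNA of whole periprostatic fat, depleted of ribosomal RNA, was sequenced from stranded libraries with 1 library per mouse, per the labels' protocols. STAR, Cufflinks and mm10 are named per the submitters' processing notes; versions, the annotation and the use of strand in counting were not given in the sources used here. As deposited, values are the authors' FPKM per gene symbol, with 23995 symbols in each of 15 tables; counts of fragments were not used here. Depth was estimated from the steps between low values, so the fragment numbers cover counting error only. Each library was divided by a median-of-ratios factor over the 5874 genes with a nonzero FPKM in every library and an average of 1 or more.

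The 3 comparisons came from 1 limma model over all groups (limma 3.58.1 under R 4.3.3, with trend and robust). The first fit took log2(scaled FPKM + 1) of 5615 genes and the low-level fit log2(scaled FPKM + 0.1) of 12693 genes. P-values were Benjamini-Hochberg adjusted over all genes of a fit, in each comparison, and called below 0.05; both fits were tested on simulated data. The members and the gene lists were chosen with earlier results of these data known. All library values are given for Tnf, its 2 receptors and the members called in the first fit, as well as for some called in the low-level fit; of the pathway genes, those with the smallest adjusted p per list and direction are named. The alternatives were other scalings, pseudocounts and filters, a replicate block, lane, and leaving out each mouse. Mice are separate animals, per the labels.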

Additional observations from a re-analysis of the deposited data

Results flagged for a closer look

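Of 84 groups of 5 libraries, 6 held a library far from the other 4, and chance marks about 1 in 20 such groups. Tnf in HFD placebo mouse 3 was 0.903 scaled FPKM, with the other 4 mice between 0.137 and 0.277. Tnfaip3 in the same mouse was 1.28, with the others between 0.402 and 0.542. Tnfrsf1b in HFD estradiol mouse 1 was 1.71, with the others between 0.825 and 0.987. Tnfrsf13c (BAFF receptor) in HFD estradiol mouse 1 was 0.261, with the others between 0.0789 and 0.123. The read-through entry Tnfsf12Tnfsf13 was 0.275 in HFD estradiol mouse 3, with the others at most 0.0753, and 0.000125 in LFD mouse 2, with the others at most 3.21e-05.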

How the results depend on the processing

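Over the alternatives run, 460 of the members' single-gene values kept their direction and their side of the threshold, 104 kept only the direction and 1 reversed. Of the named pathway genes' values, whose alternatives were chosen after seeing the data, 433 kept both, 130 only the direction and 3 reversed. For the counts, 259 stayed within 1.5 times, while 77 moved. The reversals, all for HFD placebo minus LFD, were Tnfsf10 at 0.40, Map3k5 at 0.44 and Tab3 at 0.21 with the FPKM as deposited, and Map3k5 at 0.053 with a constant sum. Tnfrsf1b kept both its calls under every alternative to the first fit but not the estradiol call in the low-level fit on lane 6, and Tnf, Tnfaip2, Tnfaip8l2 and Tnfrsf11a kept theirs for HFD placebo minus LFD.

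For HFD placebo against LFD, the first fit's member count was 11 higher and 1 lower with the low filter (at least 0.1) and also without a filter. Its count of all genes was 3998 with the low filter and 3908 without one. Its pathway count was 19 as deposited, 16 with a constant sum, 18 with the low filter, 15 without one and 4 on lane 5 only. The low-level member count was 22 as deposited. For HFD estradiol against HFD placebo, the first fit's members were 1 higher with either filter, and 8 lower with the low filter, 7 without one, 1 with lane as a term and 1 on lane 6 only. Its count of all genes was 276 as deposited, 828 with a constant sum, 2710 with the low filter, 2606 without one, 711 with lane as a term and 681 on lane 6. Its pathway count was 0 as deposited, 2 with a constant sum, 16 with the low filter, 10 without one, and 0 with lane as a term and on lane 6. The low-level member count was 5 as deposited, 3 with lane as a term and 2 on lane 6, and that of all genes 611 as deposited, 1326 with a constant sum, 821 with lane as a term and 930 on lane 6. For HFD estradiol against LFD, the first fit's count of all genes was 39 as deposited and 162 with lane as a term, and its pathway count 0 as deposited, 2 with either filter, 0 with the replicate block and 0 with lane as a term. The low-level member count was 3 with a constant sum and 0 with a pseudocount of 1, and that of all genes 163 as deposited, 747 with a constant sum and 100 with lane as a term. The looser filters test more genes and lane 6 fewer libraries; the cause of the other shifts was not tested.

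Leaving out 1 mouse at a time, the pathway count ran from 4 to 8 for HFD placebo against LFD, from 3 to 8 for HFD estradiol against HFD placebo and from 0 to 1 for HFD estradiol against LFD. The low-level member count ran from 7 to 13 and from 0 to 2 in the last 2 comparisons, and the low-level count of all genes for HFD estradiol against LFD from 311 to 519. The mouse numbers do not pair the samples: same-numbered libraries correlated at -0.210 to 0.360, and 3 of 15 correlated best with their own number. With the number as a replicate block, the first fit called 6 members, 3 members and 0 members and 2427, 1685 and 431 genes in the 3 comparisons, and the low-level fit 12, 11 and 1 members.

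Levels near 0.1 rest on 2.06 to 4.02 fragments in LFD libraries, so the calls of Tnf, Tnfsf9 and the read-through entry Tnfsf12Tnfsf13 rest on few reads. Members in neither fit cannot be placed at this depth. HFD estradiol and LFD shared no lane, and the fit with lane as a term called 1 member between them, Tnfaip2.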
